A study of Rattus norvegicus with 10 samples.

Results

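The heat shock proteins and cochaperones were followed in RNA-seq of the CA1 field of rat hippocampal slices. They were taken by gene symbol: the HSPA, HSPB, HSPD, HSPE, HSPH and HSP90 families and the J-domain proteins DNAJA, DNAJB and DNAJC. Also taken were BAG1 to BAG6, the factors Hsf1 and Hsf2, and the cochaperones Stip1, Chordc1, Ahsa1, Fkbp4 and Fkbp5. The rule used no measured value and found 84 of the 32545 genes in the count table. Of these, 71 passed the filter on low counts and were tested among 15032 genes, and 13 did not.

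The study asked how amyloid-β (Aβ) oligomers, and a glucose-derived carbon nanosphere (CSP) carrying the CBP/p300 acetyltransferase activator TTK21, alter transcription in slices stimulated through dopamine receptors. There were 5 groups with 2 libraries each, from male Wistar rats aged 5 to 7 weeks. SKF, an agonist of D1/D5 dopamine receptors, was given in 4 of them: SKF alone, SKF+Aβ, SKF+Aβ+CSP and SKF+Aβ+CSP-TTK21. The group CSP-TTK21 received neither SKF nor Aβ. Aβ was applied at 200 nM, and CSP and CSP-TTK21 at 0.36 μg/ml. All groups had 30 min of basal stimulation before treatment and were collected 1 h after it, and each library pooled 2 slices from 2 biological samples, so a single animal's response cannot be seen. The nanosphere without TTK21 was given only with SKF and Aβ. SKF is the reference of 4 of the 8 comparisons below, which share its 2 libraries. Untreated slices were not analysed here.

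Chaperones bind proteins that are unfolded, newly made or aggregating. HSP70 proteins work in cycles of ATP hydrolysis that J-domain proteins start and that exchange factors, among them the BAG and HSP110 proteins, complete, and HSP90 takes over many of their clients with the help of its own cochaperones. Heat shock factor 1 (Hsf1) switches on the inducible members through heat shock elements in their promoters when misfolded protein accumulates, whereas the chaperones of the endoplasmic reticulum answer to the unfolded protein response and often carry another motif, the ER stress response element. In neurons this system is best known for holding misfolding-prone proteins, Aβ and tau among them, in soluble or degradable form.

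The promoters of 5 members are printed as examples of these motifs, and some of the values below are grouped by them. Each line gives 250 bases before to 50 after the annotated start of the gene in RefSeq on the GRCr8 build, read 5′ to 3′ on the gene's strand, with the letters of the match named here in capitals. The Bag3 window is chr1:192533210-192533509 (+ strand) and its capitals mark a heat shock element of 2 units. Hsph1 lies at chr12:10427118-10427417 (+ strand) and Dnaja1 at chr5:60638154-60638453 (+ strand), both with a heat shock element of 3 units in capitals. Each also holds a separate 2-unit match left in lower case, at -105 to -98 from the start site in Hsph1 and at -181 to -174 in Dnaja1. Hspa5 at chr3:38452766-38453065 (+ strand) and Hsp90b1 at chr7:23012244-23012543 (- strand) have the ER stress response element in capitals.
Bag3: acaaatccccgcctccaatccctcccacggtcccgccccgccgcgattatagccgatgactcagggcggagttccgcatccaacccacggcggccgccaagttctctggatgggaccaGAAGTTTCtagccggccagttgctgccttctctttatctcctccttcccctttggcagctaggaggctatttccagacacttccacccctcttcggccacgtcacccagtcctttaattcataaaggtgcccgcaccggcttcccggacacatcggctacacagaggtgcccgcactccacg
Hsph1: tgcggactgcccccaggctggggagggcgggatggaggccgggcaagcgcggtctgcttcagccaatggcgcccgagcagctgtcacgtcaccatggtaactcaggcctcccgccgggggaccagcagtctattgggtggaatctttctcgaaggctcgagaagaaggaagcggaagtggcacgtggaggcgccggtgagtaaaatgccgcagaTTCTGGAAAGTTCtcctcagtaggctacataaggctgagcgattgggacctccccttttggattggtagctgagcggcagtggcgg
Dnaja1: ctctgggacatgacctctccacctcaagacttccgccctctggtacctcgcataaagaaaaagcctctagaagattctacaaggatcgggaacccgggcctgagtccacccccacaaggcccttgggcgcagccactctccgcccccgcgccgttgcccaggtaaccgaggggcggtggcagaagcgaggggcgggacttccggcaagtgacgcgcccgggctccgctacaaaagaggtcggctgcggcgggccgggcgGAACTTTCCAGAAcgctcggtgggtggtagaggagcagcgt
Hspa5: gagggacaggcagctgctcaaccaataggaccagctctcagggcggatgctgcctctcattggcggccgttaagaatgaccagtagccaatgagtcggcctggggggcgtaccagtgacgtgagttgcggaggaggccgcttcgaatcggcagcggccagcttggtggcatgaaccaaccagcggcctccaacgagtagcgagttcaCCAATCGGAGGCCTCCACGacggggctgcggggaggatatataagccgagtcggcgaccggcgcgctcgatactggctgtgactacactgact
Hsp90b1: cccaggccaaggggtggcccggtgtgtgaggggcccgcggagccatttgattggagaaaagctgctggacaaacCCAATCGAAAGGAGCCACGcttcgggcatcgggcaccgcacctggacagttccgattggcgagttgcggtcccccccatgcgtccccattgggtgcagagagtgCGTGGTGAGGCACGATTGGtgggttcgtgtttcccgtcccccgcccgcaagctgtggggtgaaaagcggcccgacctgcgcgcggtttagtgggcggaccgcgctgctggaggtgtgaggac

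A promoter was found for 67 of the 84 members. The 3-unit element, GAANNTTCNNGAA or its reverse complement, was present in 5 of these 67 (7.46%), namely Chordc1, Dnaja1, Hspa8, Hspd1 and Hsph1, and in 0.798% of all 33469 promoters. The 2-unit element, GAANNTTC or TTCNNGAA, is contained in every 3-unit match. It was present in 19 member promoters (28.4%), Bag3, Dnajb1, Hspb1, Hspb8, Stip1 and Fkbp4 among them, against 15.9% of all promoters. The ER stress response element, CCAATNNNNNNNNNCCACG on either strand, was in 3 member promoters (4.48%), those of Hspa5, Hsp90b1 and Dnajc3, and in 0.0657% of all. The single match in Bag3 began 132 bases before the start site, and the 3-unit match in Hsph1 36 bases before it. These are matches of letters and say nothing of which factor was bound in the slices.

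**Figure D1:**
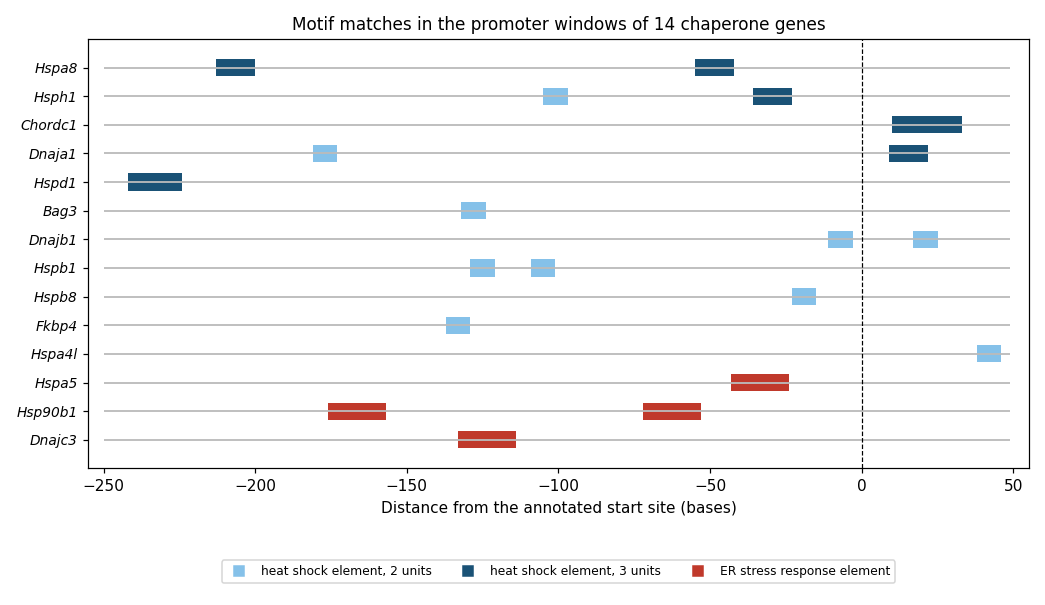
Motif matches in the promoter windows of 14 members, plotted by distance in bases from the annotated start site (dashed line). Light blue is the heat shock element of 2 units, dark blue that of 3 units and red the ER stress response element. Each of the 5 promoters with a 3-unit match is at the top, and the 3 with the ER stress response element are at the bottom.

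The libraries held 6753742 to 8473407 counts, of which the members took 0.753% to 0.919%. Levels are given as CPM, counts scaled to library size, and 3 counts correspond to 0.354 to 0.444 CPM. No gene lengths were used, so a level is compared between libraries and never between genes. Between the libraries of a group the members had a median ratio of the higher to the lower of 1.09 to 1.15. It was 1.13 to 1.19 for all genes, which were not matched to the members by level. Differences are log2 fold changes from edgeR's quasi-likelihood test, and a gene was called at a Benjamini-Hochberg adjusted p under 0.05 over all genes tested. The study describes the 2 libraries of a group as biological replicates, the labels do not say which animals or days they came from, and a p measures the spread between these libraries. An exact permutation test of 2 against 2 libraries cannot reach 0.05. Of 5 markers of CA1 pyramidal neurons, Wfs1, Mpped1 and Man1a1 passed the filter, Fibcd1 did not and Pou3f1 had no value. Markers of dentate and CA3 neurons and of glia were present too, and in such bulk RNA fewer cells of a type and less RNA per cell cannot be told apart.

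Adding Aβ under SKF gave 312 called genes over the whole table with the fit used here, and among the chaperones Bag3 alone. Bag3, ENSRNOG00000020298, is the stress-inducible BAG protein that couples HSP70 and small heat shock proteins to autophagy of aggregated clients. Its level was 79.4 and 80.6 CPM in the SKF libraries. It was 48.0 and 40.7 CPM in SKF+Aβ. The means of the remaining groups lay between: SKF+Aβ+CSP had 53.6 and 47.5 CPM, SKF+Aβ+CSP-TTK21 47.9 and 57.5 CPM, and CSP-TTK21 58.9 and 61.5 CPM. Both SKF libraries were above all 8 others, and SKF+Aβ overlapped neither SKF nor CSP-TTK21. Bag3 fell by 0.85 on the log2 scale from SKF to SKF+Aβ (SE 0.148, 95% interval -1.17 to -0.53, adjusted p = 0.0326), to 0.555 times the SKF level. This was 1 of 71 members (1.41%), against 2.08% of all genes. The whole-table count of 312 was 12 in the fit of the 4 libraries alone, 1 without SKF+Aβ replicate 1, 13 without SKF+Aβ replicate 2, 11 without SKF replicate 1, 174 without SKF replicate 2, 181 without CSP-TTK21 replicate 1, and 26 without either SKF+Aβ+CSP library. The Bag3 call did not hold in the fit of the 4 libraries alone (adjusted p = 0.0701), nor without SKF replicate 1, either SKF+Aβ library or either SKF+Aβ+CSP library (0.0508 to 0.147), while the log2 difference was between -0.99 and -0.75 in these fits. limma called Bag3 alone. DESeq2 called 6 members (8.45%), Bag3 with Dnajb4, Hsf2, Hspa13, Hspa4 and Hspb8, against 822 of all genes (5.47%), where 14 members and 5829 genes had no adjusted p and count as not called.

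The other groups were also lower in mean than SKF for Bag3, with smaller differences that edgeR did not call. The log2 fold change was -0.66 (95% interval -0.98 to -0.34, adjusted p = 0.0718) for SKF+Aβ+CSP, -0.60 (-0.92 to -0.29, adjusted p = 0.105) for SKF+Aβ+CSP-TTK21 and -0.41 (-0.72 to -0.10, adjusted p = 0.633) for CSP-TTK21. The CSP-TTK21 slices had received neither Aβ nor SKF. Adding CSP-TTK21 to SKF+Aβ gave a log2 difference of 0.25 (-0.08 to 0.57, adjusted p = 0.765), and these libraries overlapped by level. Of the other BAG genes, Bag1, Bag2, Bag4 and Bag6 had log2 fold changes of -0.29 to -0.03 in SKF+Aβ, none called. Bag6, known for guarding tail-anchored proteins, was lowest, at 161 and 158 CPM against 190 and 202 CPM in SKF, without overlap (95% interval -0.56 to -0.03, adjusted p = 0.184). Bag5 had 0 to 2 counts in a library and was not tested.

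Hspb8, a small heat shock protein that binds BAG3 as a partner in the same autophagy complex, was also highest in SKF. SKF had 21.8 and 21.6 CPM, SKF+Aβ 14.7 and 10.4 CPM, SKF+Aβ+CSP 16.8 and 15.5 CPM, SKF+Aβ+CSP-TTK21 19.9 and 14.5 CPM, and CSP-TTK21 17.2 and 18.1 CPM. Both SKF libraries were again above the other 8. In SKF+Aβ against SKF the log2 fold change was -0.79 (SE 0.211, 95% interval -1.24 to -0.33) with an adjusted p of 0.0658. Hspb8 was thus not called at the settings used. It was called by DESeq2, without the filter on low counts and with the replicate number as a block. All 4 tested genes with an HSPB symbol (Hspb1, Hspb6, Hspb8 and Hspb11) were lower in mean in SKF+Aβ, 1 of them by unadjusted p under 0.05. Their median log2 fold change was -0.56, where the median of all genes was -0.00. Hspb11 overlapped between the groups, with 4.3 and 3.3 CPM in SKF and 3.9 and 3.3 CPM in SKF+Aβ. Hspb1, the classical inducible HSP27, was at 2.65 to 6.60 CPM over all libraries. Hspb6 had 12.6 and 15.8 CPM in SKF against 10.5 and 9.09 CPM in SKF+Aβ. The summed level of the 4 was 44.5 CPM in both SKF libraries and 26.5 to 39.8 CPM in the others.

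Oligodendrocyte markers were lower in mean beside these genes. All 5 oligodendrocyte markers (Mbp, Mog, Mag, Cnp and Mobp) were lower in mean in SKF+Aβ than in SKF, with a median log2 fold change of -0.66, 4 with an unadjusted p under 0.05 and none called by edgeR or limma, while DESeq2 called 2, Mbp and Mobp. Their summed level was 12408 and 18570 CPM in SKF and 10481 and 7701 CPM in SKF+Aβ, and it was 10315 to 16346 CPM in the other groups. None of the 5 was at 0 in any group. Of 7 microglial markers 6 were lower in mean, with a median of -0.34, 2 with an unadjusted p under 0.05, 0 called by edgeR and 1, C1qa, by DESeq2, and their summed level was 95.9 and 170 CPM in SKF and 72.8 and 112 CPM in SKF+Aβ. Of the astrocyte list 4 of 6 were lower and 2 higher in mean, with a median of -0.04. The part of these lists in the differences of Bag3 and Hspb8 was not tested.

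**Figure D2:**
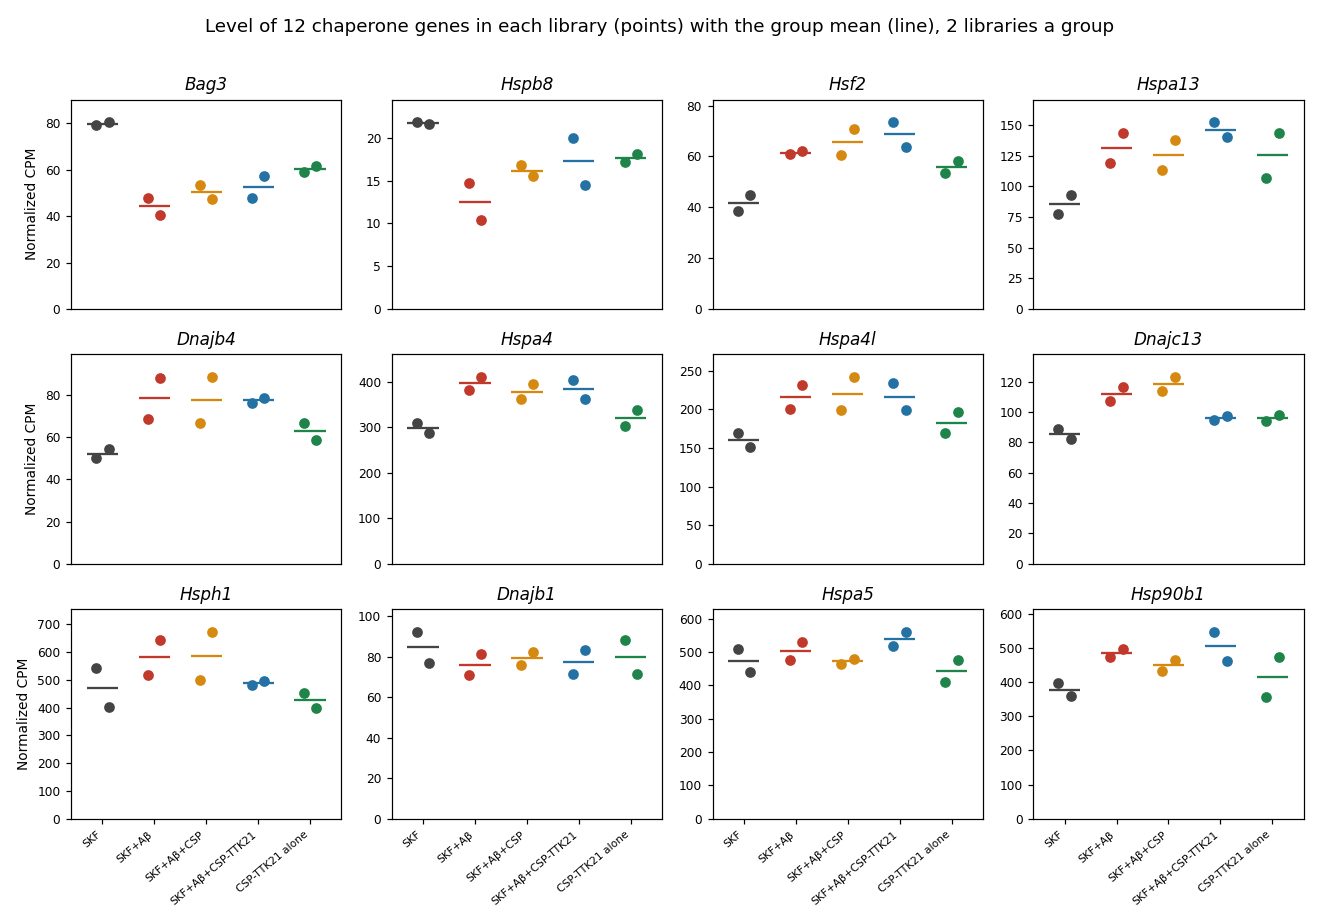
Normalized CPM of 12 members in each of the 10 libraries (points) with the group mean (horizontal line), 2 libraries a group, each axis starting at 0. Bag3 and Hspb8 were highest in the SKF libraries, Hsf2, Hspa13 and Dnajb4 were lowest there, and Dnajb1 and Hspa5 overlapped between SKF and SKF+Aβ.

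On the higher side, edgeR called no member, and the largest differences in SKF+Aβ were those of Hspa13, Dnajb4 and Hsf2. Hsf2, ENSRNOG00000000808, encodes a heat shock factor best known from development and from pairing with HSF1. Its level was 38.4 and 44.9 CPM in SKF, 60.9 and 62.1 CPM in SKF+Aβ, 60.6 and 70.9 CPM in SKF+Aβ+CSP, 73.5 and 63.7 CPM in SKF+Aβ+CSP-TTK21, and 53.3 and 58.0 CPM in CSP-TTK21. Both SKF libraries were below all 8 others. The log2 fold change over SKF was 0.56 (SE 0.149, adjusted p = 0.064) in SKF+Aβ, 0.66 (adjusted p = 0.0754) in SKF+Aβ+CSP, 0.72 (adjusted p = 0.0858) in SKF+Aβ+CSP-TTK21 and 0.42 (adjusted p = 0.633) in CSP-TTK21. edgeR called none of these differences, though the 95% interval in SKF+Aβ, 0.24 to 0.88, lay above 0. DESeq2 called Hsf2 in SKF+Aβ, SKF+Aβ+CSP and SKF+Aβ+CSP-TTK21. Without the filter on low counts edgeR called it in SKF+Aβ+CSP and SKF+Aβ+CSP-TTK21. Hsf1, the principal activator of the inducible genes, had 32.1 and 26.8 CPM in SKF and 33.0 and 26.7 CPM in SKF+Aβ, a log2 difference of 0.02 (95% interval -0.41 to 0.45).

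Hspa13, an HSP70-type ATPase of microsomes, had 77.8 and 92.9 CPM in SKF. It had 119 and 144 CPM in SKF+Aβ, 114 and 138 CPM in SKF+Aβ+CSP, 152 and 140 CPM in SKF+Aβ+CSP-TTK21, and 107 and 144 CPM in CSP-TTK21. As with Hsf2, both SKF libraries were the lowest of the 10. The log2 fold change over SKF was 0.62 (95% interval 0.25 to 0.99, adjusted p = 0.0679) in SKF+Aβ and 0.78 (0.41 to 1.14, adjusted p = 0.0892) in SKF+Aβ+CSP-TTK21. Neither was called at the settings used. Both were called by DESeq2, without the filter on low counts and with the replicate number as a block. Dnajb4, a cytosolic J-domain partner of HSP70, had 49.9 and 54.3 CPM in SKF against 68.6 and 87.8 CPM in SKF+Aβ, a log2 difference of 0.58 (0.22 to 0.95, adjusted p = 0.0761). The groups did not overlap for either gene.

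The 3 members that are exchange factors of the HSP110 type had higher means in SKF+Aβ than in SKF, and edgeR called none of them. Hyou1, a related chaperone outside the symbol rule, went the other way, at -0.32 (unadjusted p = 0.0444, adjusted p = 0.208). Hspa4 had 310 and 287 CPM in SKF and 382 and 410 CPM in SKF+Aβ, a log2 difference of 0.41 (95% interval 0.14 to 0.68, adjusted p = 0.0879). Hspa4l had 170 and 151 CPM against 201 and 231 CPM, a difference of 0.43 (0.11 to 0.75, adjusted p = 0.114). Hsph1, the heat-inducible HSP110, had 541 and 403 CPM in SKF and 516 and 645 CPM in SKF+Aβ. The Hsph1 groups overlapped, and its difference of 0.30 had an interval of -0.08 to 0.68. Hspa4, Hspa4l, the trafficking protein Dnajc13, and the other members named below for an unadjusted p were chosen after their values were seen.

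Over all 71 members, the log2 fold changes in SKF+Aβ against SKF ran from -0.48 at the 5th percentile to 0.49 at the 95th, against -0.71 and 0.78 for all genes. By unadjusted p under 0.05, 11 members were higher (15.5%, against 12% of all genes) and 4 were lower (5.63%, against 10.9%). The 11 were Chordc1, Dnaja1, Dnaja2, Dnajb4, Dnajc13, Dnajc15, Hsf2, Hsp90b1, Hspa13, Hspa4 and Hspa4l. The 4 were Bag3, Bag6, Dnajb2, a neuronal J-domain protein, and Hspb8. The median log2 fold change of the members was 0.02, and 40 were higher and 31 lower in mean. The 95% interval lay within a 2-fold change either way for 64 of 71 members (90.1%), against 65.6% of all genes. Spread and interval width vary with count level, and the genes compared were not matched to the members by level.

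**Figure D3:**
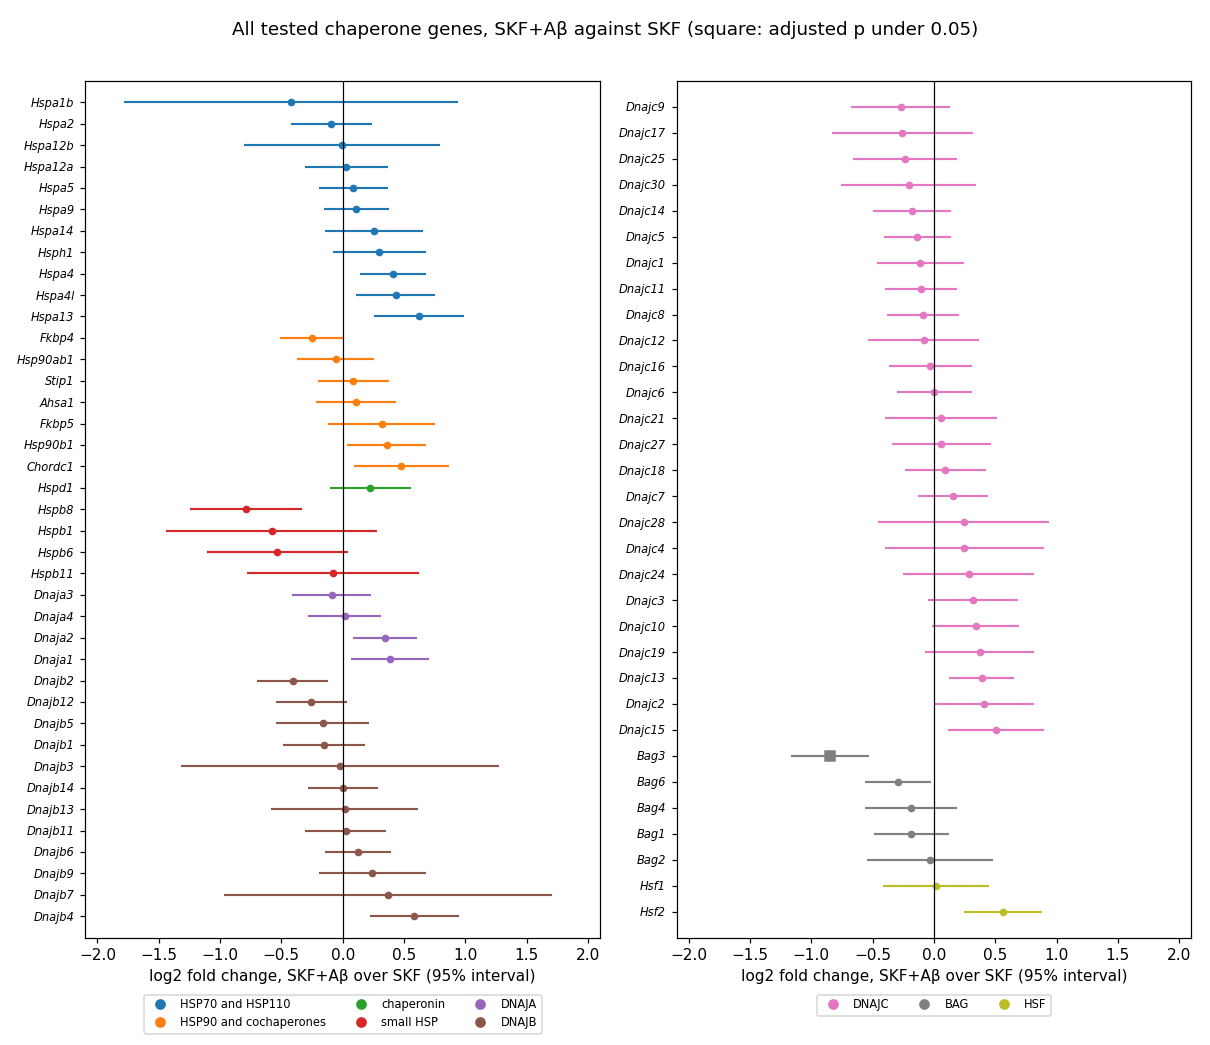
Log2 fold change of each of the 71 tested members, SKF+Aβ over SKF, with its 95% interval, ordered by family and then by value. The square marks Bag3, at -0.85 with an adjusted p of 0.0326. The points of the 4 HSPB genes, labelled small HSP, and of the 5 BAG genes lie left of 0. Hsf2 and Hspa13 lie right of it with intervals clear of 0.

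The classical heat-inducible genes that could be tested did not share a direction in mean. Of the 12 genes of the inducible core, 8 were tested (Hspa1b, Hsph1, Dnajb1, Hspb1, Hspd1, Bag3, Chordc1 and Dnaja1). Hspa1a, Hsp90aa1 and Hspa8 were below the filter, and Hspe1 had no row under that symbol. Of the 8, 4 were higher and 4 lower in mean in SKF+Aβ than in SKF, with a median of 0.04. By unadjusted p under 0.05, 2 were higher and 1 lower. Dnajb1, the HSP40 most used as a readout of heat shock, had 92.3 and 77.0 CPM in SKF and 71.0 and 81.4 CPM in SKF+Aβ. Its log2 difference was -0.15 with an interval of -0.49 to 0.18. The groups overlapped, and a 2-fold change either way lay outside the interval.

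Chordc1, an HSP90 cochaperone with a 3-unit element in its promoter, had 34.8 and 47.4 CPM in SKF and 53.5 and 61.3 CPM in SKF+Aβ. The difference was 0.48 (0.09 to 0.87, adjusted p = 0.141), without overlap. Dnaja1, a farnesylated J-domain protein whose promoter is printed above, had 293 and 250 CPM against 312 and 397 CPM, a difference of 0.38 (0.07 to 0.70, adjusted p = 0.145). Hspd1, the mitochondrial chaperonin HSP60, had 190 and 161 CPM against 193 and 216 CPM and a difference of 0.22 (-0.11 to 0.55). None of the 3 was called, and the 5 promoters with a 3-unit element thus held 4 tested genes with log2 differences from 0.22 to 0.48, and Hspa8, which was not tested. Of the 14 members with a 2-unit and no 3-unit match, 13 were tested, and 6 were higher and 7 lower in mean, from -0.85 for Bag3 to 0.43 for Hspa4l, with a median of -0.09. Of the 41 tested with neither match, 23 were higher and 18 lower, with a median of 0.02.

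Hspa1b, the inducible cytosolic HSP70, was low and uneven. It had 13.7 and 8.28 CPM in SKF, 3.49 and 13.0 CPM in SKF+Aβ, 10.9 and 14.2 CPM in SKF+Aβ+CSP, 4.35 and 9.70 CPM in SKF+Aβ+CSP-TTK21, and 15.0 and 2.81 CPM in CSP-TTK21. The libraries of one group differed up to 5.36-fold, the widest in CSP-TTK21. Its log2 fold change in SKF+Aβ was -0.42 with an interval of -1.79 to 0.94, so a level 2-fold lower than in SKF lay inside the interval. Hspa1a, its near-identical copy, had 1 count in the whole series. Reads shared between such copies may be split or dropped by counting, and the values of both are uncertain.

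Among HSP90 and its cochaperones, Hsp90ab1, the constitutive cytosolic form, was at 1987 and 1542 CPM in SKF and 1534 and 1859 CPM in SKF+Aβ. The groups overlapped, with a difference of -0.06 (-0.37 to 0.26). Stip1, which links HSP70 to HSP90, and Ahsa1, which activates the HSP90 ATPase, had differences of 0.09 and 0.11. Fkbp4, an immunophilin of steroid receptor complexes, was at 138 and 130 CPM in SKF and 106 to 129 CPM in the other libraries, without overlap, and its log2 fold change in SKF+Aβ was -0.25 (adjusted p = 0.243). Fkbp5, an immunophilin that glucocorticoid receptors induce, had 53.1 and 44.6 CPM in SKF and 53.8 and 68.0 CPM in SKF+Aβ, a difference of 0.32 (-0.12 to 0.75, adjusted p = 0.366). Of 12 other glucocorticoid receptor targets none was called in SKF+Aβ by edgeR or limma and 2, Pdk4 and Nfkbia, by DESeq2. Of the 12, 3 had an unadjusted p under 0.05, all lower, and the median was -0.14.

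The chaperones of the endoplasmic reticulum were followed as a list of 7, which does not hold Hspa13, described above, nor every member of that compartment. Hspa5 (BiP), the master chaperone and sensor partner of the unfolded protein response, had 508 and 440 CPM in SKF, 477 and 529 CPM in SKF+Aβ, and 520 and 561 CPM in SKF+Aβ+CSP-TTK21. Its log2 difference in SKF+Aβ was 0.09 (-0.20 to 0.37). Hsp90b1 (GRP94), the HSP90 of this compartment, had 396 and 359 CPM in SKF and 473 and 496 CPM in SKF+Aβ, without overlap, a difference of 0.36 (0.04 to 0.68, adjusted p = 0.175). Dnajc3, which restrains the kinase PERK, had 34.0 and 27.0 CPM against 38.3 and 37.7 CPM, a difference of 0.32 (-0.05 to 0.69). The 3 genes with an ER stress response element thus had differences of 0.09 to 0.36, none called.

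Dnajb9 and Dnajb11 are J-domain partners of BiP. Dnajb11 had 53.6 and 51.9 CPM in SKF and 45.0 to 60.7 CPM in the other libraries. Dnajb9 had 23.8 and 41.0 CPM in SKF and 49.7 and 52.2 CPM in SKF+Aβ+CSP-TTK21, a log2 difference of 0.65 (0.22 to 1.09, adjusted p = 0.134), and its SKF libraries differed from each other more than those of any other group. Dnajc10, a reductase of this compartment, had 90.4 and 109 CPM in SKF and 151 and 132 CPM in SKF+Aβ+CSP-TTK21, a log2 difference of 0.50 (adjusted p = 0.146), and Dnajc1 was at 22.4 to 28.5 CPM over all libraries. The 7 genes had a median log2 fold change of 0.24 in SKF+Aβ and of 0.37 in SKF+Aβ+CSP-TTK21 against SKF, where the median of all genes was -0.00 and -0.01. The 14 listed targets of ER stress and the integrated stress response outside the chaperones had medians of -0.12 and 0.03 in the same comparisons, with none called by any of the 3 tools. In SKF+Aβ 12 of the 14 were lower in mean, 3 of them by unadjusted p, and 2 higher, 0 by unadjusted p. Among the 3 were Atf4, the factor of the integrated stress response, at -0.35 (unadjusted p = 0.0319, adjusted p = 0.177), and Hyou1, a chaperone of the endoplasmic reticulum, at -0.32 (unadjusted p = 0.0444, adjusted p = 0.208). Those with the lowest p over the 5 groups were Sesn2, Atf3 and Ddit3.

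The mitochondrial members tested were 7, with a median of 0.11 in SKF+Aβ and none called by edgeR, DESeq2 or limma. Dnajc15, a J-domain protein of the inner membrane, had 13.1 and 13.6 CPM in SKF, 17.0 and 21.0 CPM in SKF+Aβ, 22.6 and 20.5 CPM in SKF+Aβ+CSP-TTK21, and 14.2 and 16.2 CPM in CSP-TTK21. SKF was lowest, and the log2 fold change was 0.51 (adjusted p = 0.127) in SKF+Aβ and 0.69 (adjusted p = 0.109) in SKF+Aβ+CSP-TTK21. The partner of HSP60, Hspe1, had no row under that symbol in the count table.

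Of 24 further chaperones and cochaperones outside the symbol rule, 1 (4.17%, against 2.08% of all genes) was called in SKF+Aβ against SKF. Hspbp1, an inhibitor and exchange factor of HSP70, fell by 0.80 on the log2 scale (SE 0.182, adjusted p = 0.0444), from 46.5 and 44.3 CPM to 21.8 and 30.4 CPM, and the groups did not overlap. The call did not hold in the fit of the 4 libraries alone (adjusted p = 0.104), nor without any 1 library of SKF, SKF+Aβ, SKF+Aβ+CSP or CSP-TTK21 (0.0516 to 0.203), with log2 differences of -1.08 to -0.59. With Cdc37, the HSP90 adaptor for kinases, and Serpinh1, the collagen chaperone HSP47, it had the lowest p of that list over the 5 groups, and the list's median in SKF+Aβ was -0.07. limma called Hspbp1 alone and DESeq2 4 of the 24 (16.7%, against 5.47% of all genes). In the other comparisons edgeR called 0 of the 24 and DESeq2 at most 1.

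The question of the nanospheres was whether CSP-TTK21, and not the carrier, moves these genes in slices with SKF and Aβ. By edgeR no member was called in the 3 comparisons among the SKF+Aβ groups, where 0% of all genes were called in each, and DESeq2 and limma also called 0 members. For CSP-TTK21 against CSP the count over all genes was 0 at these settings, 22 by DESeq2, 50 in the fit of the 4 libraries alone, 307 without the filter on low counts, and 5 or 6 without 1 of the SKF libraries, with 0 members called in each of these. Without the filter it was 128 for CSP-TTK21 against SKF+Aβ, where it was 7 without SKF+Aβ replicate 2, and 66 for CSP against SKF+Aβ, again with 0 members. With CSP-TTK21 against SKF+Aβ, 0 members had an unadjusted p under 0.05 in either direction, against 2.52% of all genes higher and 4.06% lower. After Dnajb3, the member with the highest difference was Hspb8, at 0.46 (95% interval -0.00 to 0.92). Beside it all 5 oligodendrocyte markers were higher in mean with CSP-TTK21 (median 0.51, 4 with an unadjusted p under 0.05), as were all 7 microglial markers (median 0.49, 2 with an unadjusted p under 0.05) and all 6 of the astrocyte list (median 0.31, 0 by unadjusted p). The interval excluded a 2-fold change either way for 66 of 71 members (93%), against 72.1% of all genes, again not matched for level.

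With CSP against SKF+Aβ, 1 member was higher by unadjusted p (1.63% of all genes were) and 0 lower (0.552%). The one was Hspb1, with 2.65 and 3.73 CPM in SKF+Aβ and 5.20 and 6.60 CPM with CSP, a log2 difference of 0.88 (adjusted p = 1). With CSP-TTK21 against CSP under SKF and Aβ, 1 member, Bag4, was higher (3.17% of all genes were) and 2, Dnajc13 and Hspa12b, were lower (5.61%). Dnajc13 had 114 and 123 CPM with CSP and 94.8 and 97.7 CPM with CSP-TTK21, a difference of -0.30 (adjusted p = 0.557). Hspa12b, an HSP70 relative known from endothelium, had 7.09 and 9.67 CPM against 5.11 and 3.85 CPM, a difference of -0.89 (adjusted p = 0.562).

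Most endothelial and mural markers were lower in mean beside Hspa12b in CSP-TTK21 against CSP. Most were higher in mean beside Hspb1 in CSP against SKF+Aβ. The 5 endothelial markers tested were all lower in mean with CSP-TTK21 than with CSP, with a median of -1.04 and 4 of 5 lower by unadjusted p, and DESeq2 called 2, Flt1 and Cdh5, where edgeR called 0. All 5 were higher in mean with CSP than in SKF+Aβ (median 0.354), as were 6 of 7 mural cell markers (median 0.435). The summed level of the 5 endothelial markers was 188 and 138 CPM in SKF+Aβ+CSP and 77.7 and 75.7 CPM in SKF+Aβ+CSP-TTK21. It ranged from 75.7 to 188 CPM in all libraries. Cldn5 was below the filter and Pecam1 had no value. Of 7 mural cell markers 6 were lower with CSP-TTK21 than with CSP, with a median of -0.49, and 2 by unadjusted p, while 2 of 4 meningeal fibroblast markers were lower by unadjusted p. All 7 microglial markers were higher, with a median of 0.59, 2 by unadjusted p. The part of these lists in the values of these genes was not tested.

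The remaining comparisons with SKF called no member by edgeR. In SKF+Aβ+CSP against SKF 0.02% of all genes, 3 in number, were called, and 8 members were higher (10.3% of all genes) and 5 lower (9.03%) by unadjusted p. In SKF+Aβ+CSP-TTK21 against SKF 0.00665% were called, with 12 members higher (10.8%) and 2 lower (8.78%). That whole-table count, 1 gene, was 355 by DESeq2 (2.36%), and it also moved when SKF replicate 2 was left out. The latter fit keeps 1 SKF library, so the other groups supply its spread. In SKF+Aβ+CSP against SKF the 3 genes became 452 by DESeq2 (3.01%), 754 without the filter, 54 at a minimum of 10 counts, 13 without either SKF+Aβ+CSP-TTK21 library, 6 or 5 without 1 of the SKF libraries and 1 without either SKF+Aβ+CSP library. DESeq2 called 3 members (4.23%) in each comparison, Bag3, Dnajc13 and Hsf2 in the former and Bag3, Hsf2 and Hspa13 in the latter, and limma called 0. The 12 higher members with CSP-TTK21 included 4 of the 7 in the endoplasmic reticulum.

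In CSP-TTK21 against SKF, which differ in both agents, 0% of all genes and no member were called by edgeR. DESeq2 and limma also called 0 members. Over all genes the count was 157 (0.622%) without the filter on low counts and 3 (0.02%) by DESeq2, with 0 members in each. By unadjusted p 2 members were higher (4.16% of all genes), Hsf2 and Hspa13, and 2 lower (3.63%), Bag3 and Dnajb5. In SKF+Aβ+CSP-TTK21 against CSP-TTK21, which asks what SKF and Aβ together add, 0% of all genes and no member were called by any of the 3 tools. Without the filter 63 genes (0.249%) and 0 members were called. At the settings used 3 members, Dnaja2, Dnajc15 and Hspa5, were higher by unadjusted p (2.06%) and 0 lower (2.12%). Hspa5 had 520 and 561 CPM against 410 and 477 CPM, a difference of 0.29 (adjusted p = 0.963). In this comparison 49 of 71 members were higher in mean, with a median of 0.08, against 50.7% of all genes.

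**Figure D4:**
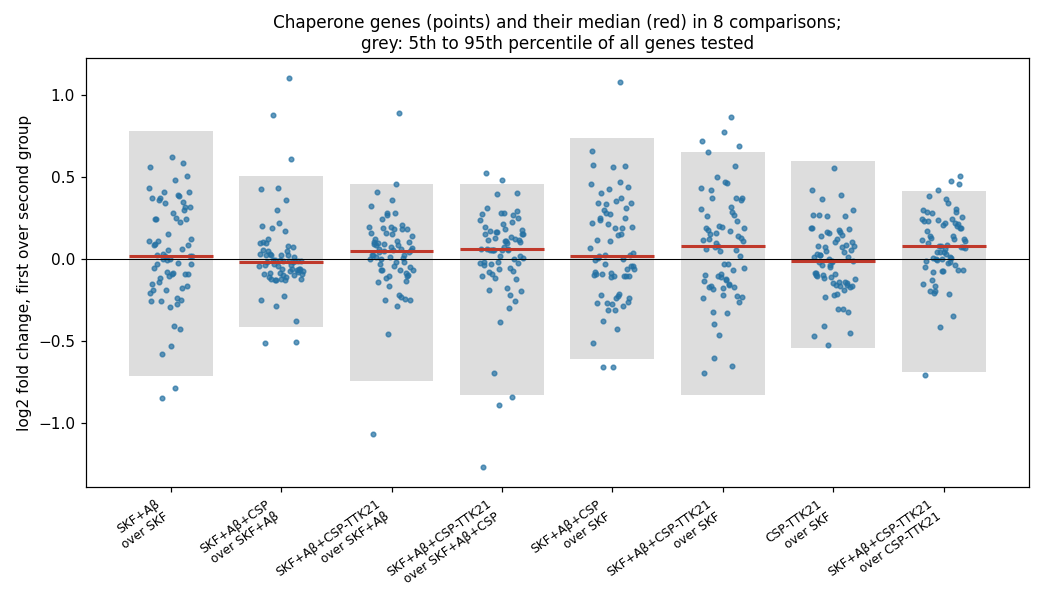
Log2 fold change of the 71 tested members (points) in each of the 8 comparisons, with their median (red) and the range from the 5th to the 95th percentile of all tested genes (grey). Member medians were between -0.02 and 0.08, and most points lie inside the grey range.

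In the test over all 5 groups 0.00665% of genes and no member were called by edgeR or limma, and DESeq2 called 3 members (4.23%) and 407 genes in all (2.71%). By unadjusted p edgeR took 10 of 71 members, against 14.3% of all genes, with Bag3 (adjusted p = 0.173), Hsf2 (adjusted p = 0.204) and Hspa13 (adjusted p = 0.227) lowest. Chosen after the values were seen, the contrast of the SKF libraries with all 8 others is a description. Both SKF libraries were above the 8 others for 8 members (11.3%, against 7.48% of all genes): Bag3, Bag6, Dnajb12, Dnajb2, Dnajb5, Dnajc25, Fkbp4 and Hspb8. They were below for 6 members (8.45%, against 9.58%): Dnaja2, Dnajb4, Dnajc13, Dnajc15, Hsf2 and Hspa13. The share above is greater than in the whole table and the share below is smaller, and neither was tested.

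The extremes of several comparisons were set by J-domain genes with few counts. Dnajb3 and Dnajb7, intronless genes best known from testis, had 0.559 to 2.01 and 0.428 to 1.68 CPM, or 4 to 17 and 3 to 12 counts in a library. Dnajb3 had the highest log2 fold change of all members in 4 comparisons, up to 1.11, with unadjusted p of 0.0601 and above. Dnajb7 had the lowest in 4, down to -1.27, with unadjusted p of 0.0731 and above. Of others among the 3 highest or lowest, Dnajc4 was at 4.98 to 9.55 CPM over the libraries, Dnajc28 at 4.98 to 9.99 CPM, Dnajc17 at 6.15 to 11.3 CPM, Dnajb13 at 11.1 to 24.2 CPM and Hspa14 at 16.0 to 23.8 CPM. None of these was called in any comparison by edgeR.

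The 13 members below the filter include genes that are abundant in brain. Hspa8, the constitutive HSC70, had 1 to 11 counts in a library, and Hsp90aa1, the inducible cytosolic HSP90, had 0 to 10. Both have near-identical copies elsewhere in the genome, and whether counting placed their reads on such copies was not tested, so these counts give no level for either gene. The others were Hspa1a, Hspa1l, Hspb2, Hspb3, Hspb7, Hspb9, Dnajb8, Dnajc22, Dnajc5b, Dnajc5g and Bag5, each with at most 13 counts in a library. Hspb7, known from heart and muscle, had 6 and 9 counts in SKF and 0 to 3 in the other 8 libraries, the latter at or below the 3 counts taken as the floor. Without the filter its adjusted p was 0.191 for SKF+Aβ over SKF and 0.197 for SKF+Aβ+CSP.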

How the data were processed

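RNA-seq of CA1 tissue gave whole-number counts per rat Ensembl gene in a table that the authors deposited, with 10 libraries in 5 groups named by their titles. Per the study's methods the libraries were stranded and rRNA-depleted, and PCR duplicates were removed. That text names the rat assembly for the index and mm10 for the alignment, while the submitters' processing notes list STAR, RSEM, HISAT2, Salmon and GRCh38. The program, annotation release and strand setting behind the counts are not given in the sources used here, so overlapping and antisense genes may share reads.

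Counts were filtered with filterByExpr, scaled by TMM factors and fitted with edgeR 4.0.16 (R 4.3.3) as a mean per group over all 10 libraries, with a common biological coefficient of variation of 0.136. limma 3.58.1 and DESeq2 1.42.0 were alternatives. Intervals use the moderated degrees of freedom. The script was tested on simulated data. The rule for genes named with values took those called, the inducible, endoplasmic reticulum, Fkbp5 and Hsf members, and the 3 highest and 3 lowest of each comparison. Other members with values were chosen after these were seen. The members, lists and tests were chosen with earlier results of these data known. Same-numbered libraries deviated together with correlations of -0.07 to 0.24 over 10 pairs of groups, and the numbers were not taken as pairing. Some genes of the comparison lists are not reported here.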

Additional observations from a re-analysis of the deposited data

How the results depend on the processing

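The count of members called in SKF+Aβ against SKF, 1 at the settings used, was 6 by DESeq2, 4 without the filter on low counts, 15 by unadjusted p, 0 with a log2 fold limit of 1.5, 0 in the fit of 4 libraries and 0 to 1 when each library was left out in turn. It was 0 without SKF replicate 1, without either SKF+Aβ library and without either SKF+Aβ+CSP library (Bag3 adjusted p 0.0508 to 0.147). DESeq2 called Bag3, Dnajb4, Hsf2, Hspa13, Hspa4 and Hspb8. The counts of 0 became 3 in SKF+Aβ+CSP against SKF, 3 in SKF+Aβ+CSP-TTK21 against SKF and 3 over the 5 groups by DESeq2, and 3, 5 and 4 in the same comparisons without the filter. By unadjusted p these 3 were 13, 14 and 10, and the comparisons of CSP with SKF+Aβ, CSP-TTK21 with CSP under SKF and Aβ, CSP-TTK21 alone with SKF, and SKF+Aβ+CSP-TTK21 with CSP-TTK21 alone gave 1, 3, 4 and 3. The count in SKF+Aβ+CSP-TTK21 against SKF also moved when SKF replicate 2 was left out. A fit without 1 library keeps 1 in that group, so the other groups supply the spread. Counts under limma, RLE factors and a minimum of 10 counts were those of the settings used in all 9 tests. With the replicate number as a replicate block, 3 members were called in SKF+Aβ against SKF (Bag3, Hspa13 and Hspb8) and 2 in SKF+Aβ+CSP-TTK21 against SKF (Hsf2 and Hspa13), and the other 7 counts did not move. Correlations of same-numbered libraries were over 0.1 in 4 of 10 pairs of groups. Over all genes in SKF+Aβ against SKF, the 312 calls (2.08%) became 822 by DESeq2 (5.47%), 1311 without the filter (5.19%) and 425 with the replicate block (2.83%), where members stood at 8.45%, 4.76% and 4.23%. In SKF+Aβ+CSP-TTK21 against SKF the 1 call became 355 by DESeq2, 902 without the filter (3.57%) and 108 with the replicate block (0.718%), with members at 4.23%, 5.95% and 2.82%. DESeq2 and the fit without the filter called 452 and 754 genes in SKF+Aβ+CSP against SKF and 407 and 1401 over the 5 groups. The block gave 14 in CSP-TTK21 against CSP. The Bag3 difference in SKF+Aβ against SKF was negative at every setting (-0.99 to -0.75), and the sign of other members was not followed. The cause of these shifts was not tested. DESeq2 gave no adjusted p to 12 to 19 members in the 4 tests where it called members. With 2 libraries a group, the median half-width of a member's 95% interval was 0.35 on the log2 scale.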
